A study of Homo sapiens with 6 samples.

Results

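Messenger RNA of 54 genes that build, cross-link, pull on and anchor actin filaments was compared between A549 cells given DAMTC and control cells. They were taken from a list of 59 gene symbols as those with at least 1 array probe detected above background, at a detection p-value under 0.05, on 3 or more of the 6 arrays. The table held 100 probes for 56 of the 59 genes, and 81 of these probes passed, against 13762 probes kept and 10779 genes tested over the whole array. ACTR2, TPM3 and FLNA were not analysed here. LIMK1 was detected on no array and ROCK1 on 2 arrays, so both were left out. A549 is an established human lung adenocarcinoma line of epithelial origin. The 3 DAMTC arrays hold RNA of cells exposed to 160 µg/ml of DAMTC, a compound given here by the code name of the labels, over 24 h, and the 3 control arrays RNA of A549 cells without it. The vehicle and the number of separate cultures are not given in the sources used here, so a p-value covers the spread seen from array to array.

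Actin filaments are polymers of globular actin that give a cell its shape and cortex. The Arp2/3 complex and formins start new filaments, profilin feeds monomers to growing ends, capping protein closes those ends and cofilin severs old filaments. Tropomyosins, alpha-actinins and transgelins decorate or bundle filaments, and non-muscle myosin II pulls on them. Focal adhesions, built from talin, kindlin, vinculin, zyxin, tensin and the complex of ILK, PINCH and parvin, tie filaments to integrins. Ezrin and moesin link filaments to the plasma membrane.

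The control arrays detected 17357, 17364 and 17835 probes and the DAMTC arrays 16622, 17058 and 16329, so every DAMTC array detected fewer than every control. All lay on 1 BeadChip with controls in the first positions and DAMTC arrays in the last, so chip position and treatment cannot be told apart. Control replicate 1 stood apart from the other controls on the component that held 22.9% of the variance. It lay at least 0.5 log2 units above both other controls for 12 of the 54 genes and at least 0.5 below both for 4, and results are therefore also given without it. All 6 epithelial markers examined (KRT7, KRT8, KRT18, KRT19, CDH1 and EPCAM) were detected on every array, and CDH1, the epithelial cadherin, was lower with DAMTC (log2 difference -1.64, adjusted p = 0.0239). The other 5 did not pass, with differences of 0.62 for KRT8, 0.53 for KRT18, 0.85 for KRT19, -0.43 for KRT7 and -0.63 for EPCAM. Of the smooth muscle and fibroblast markers, MYH11, DES, LUM, COL3A1 and PDGFRB were detected on 0 arrays, DCN on 1 array and PDGFRA on 6. Of the leukocyte and endothelial markers, PTPRC, CD3E, CDH5 and VWF were detected on 0 arrays and CD14 and PECAM1 on 6. In bulk RNA, fewer cells that express a gene and less of its RNA per cell cannot be told apart.

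Most of the actin and adhesion genes did not pass the test between DAMTC and control. Of the 54 genes, 3 rose (ARPC4, TAGLN2 and PDLIM7), 5 fell (TNS3, RHOB, LIMS1, FERMT1 and ACTN1) and 46 did not pass at a Benjamini-Hochberg adjusted p under 0.05 over all genes tested. The genes that passed are 14.8% of the 54, while 24.9% of all genes tested passed, 12.2% higher and 12.8% lower. Their median log2 difference was 0.03, against -0.04 over all genes. The 3 DAMTC arrays lay wholly above or below the 3 control arrays for 15 of the 54 genes (27.8%), 7 higher and 8 lower, against 41.9% of all genes. The 95% interval of the difference lay within 2-fold in either direction for 28 of the 54 genes (51.9%) and for 30.4% of all genes. Without control replicate 1, 6 genes rose and 6 fell. Without control replicate 2 these numbers were 1 and 3, without control replicate 3 they were 4 and 2, and without DAMTC replicate 1, 2 and 3 they were 1 and 4, 2 and 2, and 0 and 2. With median scaling of the arrays, used instead of quantile normalization, which put the median of all genes at -0.26 and that of the 54 genes at -0.10, 0 rose and 5 fell. The shares of all genes that passed in these settings are not given here. These counts alone thus do not tell a change over the whole array from one in the 54 genes.

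**Figure D1:**
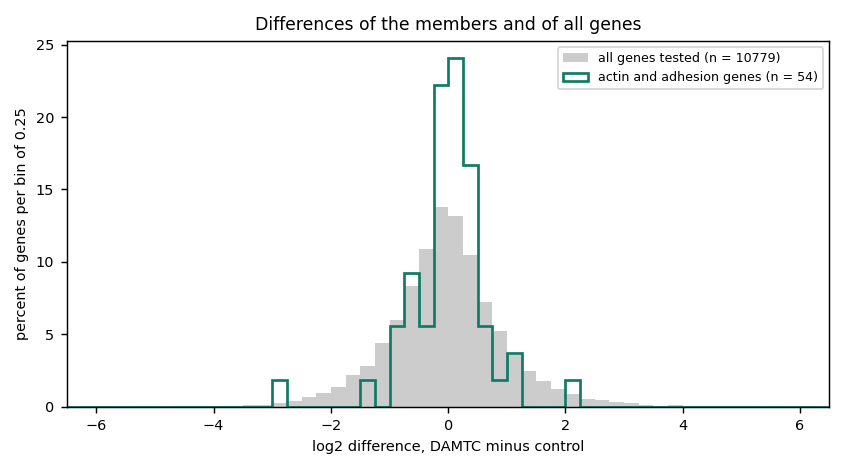
Percent of genes (y axis) in bins of the log2 difference between DAMTC and control (x axis), for all 10779 genes tested (grey) and for the 54 actin and adhesion genes (green line). The 54 genes lie mostly close to 0, with TNS3 at -2.90 and PDLIM7 at 2.06 at the ends.

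**Figure D2:**
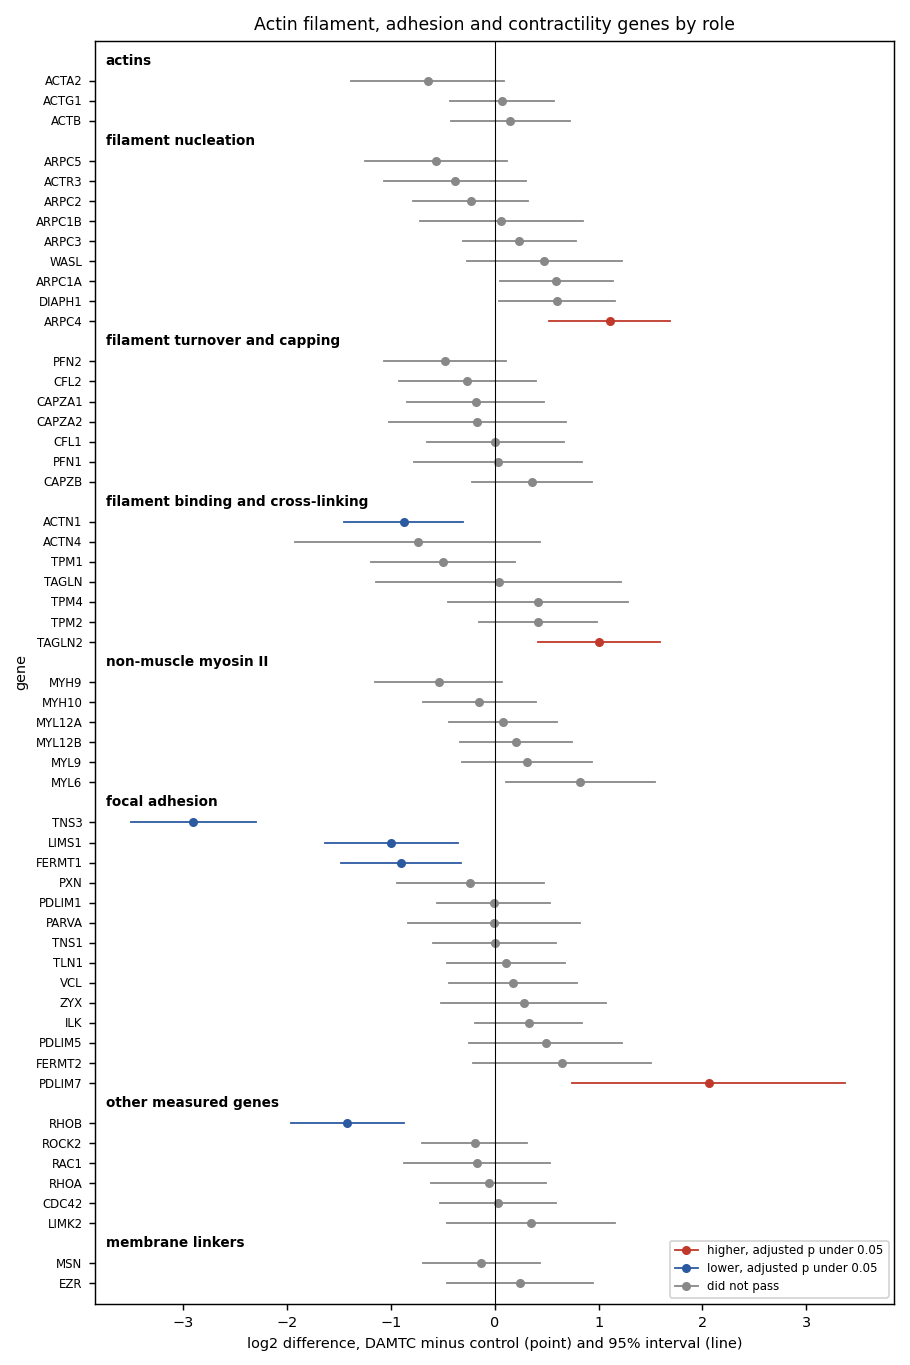
Log2 difference between DAMTC and control (x axis, point) with its 95% interval (line) for each of the 54 genes, grouped by role and coloured by whether the gene passed the test. The 8 coloured genes are spread over filament nucleation, filament binding, focal adhesion and the genes outside the named roles, while no actin, turnover, myosin or membrane linker gene is coloured.

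Among focal adhesion genes, TNS3 had the largest difference of the 54 genes. TNS3 encodes tensin 3, an adaptor that joins integrin tails to actin filaments. Its log2 normalized intensity was 13.25, 13.04 and 13.00 on control replicates 1 to 3 and 9.86, 10.58 and 10.15 on DAMTC replicates 1 to 3. Every DAMTC array was thus more than 2 log2 units below every control array, and the gene fell 7.48-fold (log2 difference -2.90, SE 0.27, 3 arrays in each group, limma adjusted p = 3.17e-04). It passed in all 18 alternatives of processing and left-out arrays, with differences from -3.10 to -2.74. TNS1, the related tensin 1, was detected on 1 control array and 2 DAMTC arrays and differed by -0.001 (95% interval -0.59 to 0.59).

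RHOB was the other gene that passed in all 18 alternatives. RHOB encodes a small GTPase that sits largely on endosomes, is turned over quickly and is induced by cell stress. It read 10.93, 11.15 and 10.98 on the control arrays and 9.86, 9.41 and 9.52 on the DAMTC arrays. The groups did not overlap, and the gene fell 2.68-fold (log2 difference -1.42 ± 0.24 SE, adjusted p = 0.0038), with differences from -1.68 to -1.29 over the alternatives.

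The 250 bases before an annotated start of 4 genes are shown, RHOB and TNS3 because their falls passed in every alternative, ACTN1 as a gene that fell and ACTG1 as one that did not pass, the last pair with a CArG box, the site of serum response factor (SRF), the transcription factor of many actin genes. They were taken from RefSeq on GRCh38.p14 and are written in the direction of transcription. Capitals mark the CArG box, TATAAA or CCAAT, each searched on both strands (ATTGG and TTTATA are the reverse forms).
RHOB, chr2:20446824-20447073, plus strand: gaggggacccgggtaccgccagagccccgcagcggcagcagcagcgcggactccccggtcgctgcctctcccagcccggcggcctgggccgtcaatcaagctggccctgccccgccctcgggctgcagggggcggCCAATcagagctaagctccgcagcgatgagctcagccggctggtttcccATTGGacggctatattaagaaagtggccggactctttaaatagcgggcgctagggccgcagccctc
TNS3, chr7:47537473-47537722, minus strand: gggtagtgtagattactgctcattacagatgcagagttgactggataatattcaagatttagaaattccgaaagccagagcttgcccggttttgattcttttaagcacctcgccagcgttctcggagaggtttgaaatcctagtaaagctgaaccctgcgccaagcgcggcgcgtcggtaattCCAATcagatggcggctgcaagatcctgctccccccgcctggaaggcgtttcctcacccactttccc
ACTN1, chr14:68977567-68977816, minus strand: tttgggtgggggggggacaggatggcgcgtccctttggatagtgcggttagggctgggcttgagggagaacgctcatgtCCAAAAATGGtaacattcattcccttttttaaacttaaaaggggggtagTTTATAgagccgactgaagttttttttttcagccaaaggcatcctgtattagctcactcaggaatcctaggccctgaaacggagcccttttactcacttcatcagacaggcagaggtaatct
ACTG1, chr17:81512800-81513049, minus strand: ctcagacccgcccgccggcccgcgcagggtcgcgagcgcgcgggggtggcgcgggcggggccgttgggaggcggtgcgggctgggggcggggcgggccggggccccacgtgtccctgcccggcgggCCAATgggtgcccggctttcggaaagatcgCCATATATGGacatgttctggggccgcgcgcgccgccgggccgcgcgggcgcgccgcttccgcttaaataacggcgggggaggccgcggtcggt
The RHOB window holds CCAAT in both orientations, at 115 and 66 bases before the start, the TNS3 window 1 copy, the ACTG1 window 1 copy and the CArG box, and the ACTN1 window a CArG box and TATAAA in reverse. TNS3 has 2 further annotated starts, with none of the motifs, and ACTN1 has 3, of which 1 holds CCAAT in 2 places. Which start is used in A549 was not measured here. In the RefSeq table, 84 starts of the listed genes were found, those of FLNA included, and 5.95% of their windows hold a CArG box, against 1.16% of all 35116 windows. CCAAT stands in 28.6% against 32.0% and TATAAA in 4.76% against 10.7%. No start was found for ACTB, ARPC1B, PFN2, TAGLN, MYL9, PARVA, FERMT1 or RAC1, so these shares leave them out. In 1 of the CArG windows, of FLNA, the CArG box and CCAAT overlap. A match is a description of the letters and not a bound site.

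A group of 10 genes commonly given as SRF targets (ACTB, ACTG1, ACTA2, FLNA, MYH9, MYL9, TAGLN, TPM1, VCL and ZYX) had 9 measured members, and 0 of them passed in limma, while 24.9% of all genes passed. At an unadjusted p under 0.05 there were 0 as well, against 4060 of all 10779 genes tested. The median log2 difference of the 9 was 0.07, against -0.04 over all genes, and 6 of the 9 had a positive difference. The intervals of 4 lay within 2-fold (44.4%, against 30.4% of all genes). Without control replicate 1, ACTA2 passed (log2 difference -0.92, adjusted p = 0.0351). ACTA2 and MYH9 also passed with array weights, and TPM1 with its most variable probe, each lower with DAMTC. The list was chosen with earlier results of these data known and does not hold ACTN1, which fell. The count of 0 therefore describes only the genes listed.

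Most other focal adhesion genes did not pass. Of 14 measured, TNS3 included, 1 rose and 3 fell (28.6% passed, against 24.9% of all genes), and 10 did not pass. FERMT1, encoding kindlin-1, an activator of integrins in epithelial cells, read 7.77, 7.92 and 7.82 on controls and 7.31, 6.75 and 6.74 with DAMTC. The controls were tightly grouped and all DAMTC arrays lower, and the gene fell 1.87-fold (-0.90 ± 0.26 SE, adjusted p = 0.032). Its adjusted p was 0.0776 and 0.081 without control replicate 2 and 3 and 0.122 and 0.129 without DAMTC replicate 2 and 3. It was 0.0511 with a trended and robust prior, and with no background correction the difference was -0.52 (adjusted p = 0.0373). FERMT2, the widely expressed kindlin-2, read 12.08, 10.55 and 11.04 on controls and 11.83, 11.87 and 11.91 with DAMTC. The difference of 0.65 had adjusted p = 0.25. Dropping control replicate 1, the highest of the 6 arrays, gave 1.08 (adjusted p = 0.0103).

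PDLIM7, encoding a PDZ and LIM domain protein of stress fibres, read 6.43, 6.51 and 8.29 on controls and 10.11, 8.41 and 8.89 with DAMTC. The groups were separated by only the gap between control replicate 3 and DAMTC replicate 2, and the spread was wide (SD 1.05 and 0.87, n = 3 each). The gene rose 4.17-fold (2.06 ± 0.58 SE, adjusted p = 0.0314). It did not pass without control replicate 1 (1.74, adjusted p = 0.0574) or 2 (1.78, 0.0779), without DAMTC replicate 1 (1.57, 0.104) or 3 (2.18, 0.0743), or with median scaling (1.72, 0.054). Nor did it pass with no background correction (1.38, 0.0672), no detection filter (2.06, 0.0913), the mean of its probes (0.88, 0.11) or array weights (1.10, 0.0796). Other detected PDLIM7 probes differed by 0.60 and -0.01 (adjusted p = 0.195 and 0.985 in the fit over all probes). Of its relatives, PDLIM1 differed by -0.01 (95% interval -0.55 to 0.53) and PDLIM5 by 0.49 (-0.25 to 1.23). PDLIM5 read 5.465, 5.32 and 5.54 on controls, near the dimmest detected probe of those arrays (5.285, 5.285 and 5.254). With DAMTC it read 5.49, 6.62 and 5.70, so replicate 2 stood apart. Another detected PDLIM5 probe differed by 0.01 (adjusted p = 0.985 in the fit over all probes).

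LIMS1 encodes PINCH-1, the partner of ILK and parvin at adhesions. Its brightest probe read 11.62, 12.23 and 11.61 on controls and 10.56, 10.79 and 11.13 with DAMTC, and it fell 1.997-fold (-0.998 ± 0.28 SE, adjusted p = 0.0324). Another LIMS1 probe read 7.31, 6.68 and 6.29 on controls and 7.79, 8.17 and 7.86 with DAMTC, and it rose (1.18 ± 0.31 SE, adjusted p = 0.0231 in the fit over all probes). The remaining LIMS1 probes differed by 0.77 (adjusted p = 0.0549) and 0.02 (adjusted p = 0.959), so the direction for LIMS1 depends on the probe. The annotation gives all 4 probes the same transcript model. The difference between the rising and the falling probe within each array was larger with DAMTC by 2.18 log2 units. An exact permutation test (two-sided) returned p = 0.1, which is as low as 3 against 3 arrays can go. The pair was chosen after its values on these same arrays were seen, so this p-value lends no support. The fall of the brightest probe did not pass without control replicate 2 (adjusted p = 0.0923) or 3 (0.0561) or without DAMTC replicate 1, 2 or 3 (0.12, 0.103 and 0.0571). ILK differed by 0.33 (95% interval -0.19 to 0.84), with the DAMTC arrays all above the controls, and PARVA, a parvin, by -0.01 (-0.84 to 0.82). Another detected ILK probe differed by 0.665 (adjusted p = 0.0971 in the fit over all probes).

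Talin, vinculin, zyxin and paxillin, the core of the adhesion plaque, did not pass. TLN1 differed by 0.11 (95% interval -0.46 to 0.68), VCL by 0.17 (-0.44 to 0.79), ZYX by 0.28 (-0.52 to 1.07) and PXN by -0.24 (-0.94 to 0.47). Their groups overlapped, and other detected probes of VCL and ZYX differed by 0.16 and 0.27.

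**Figure D3:**
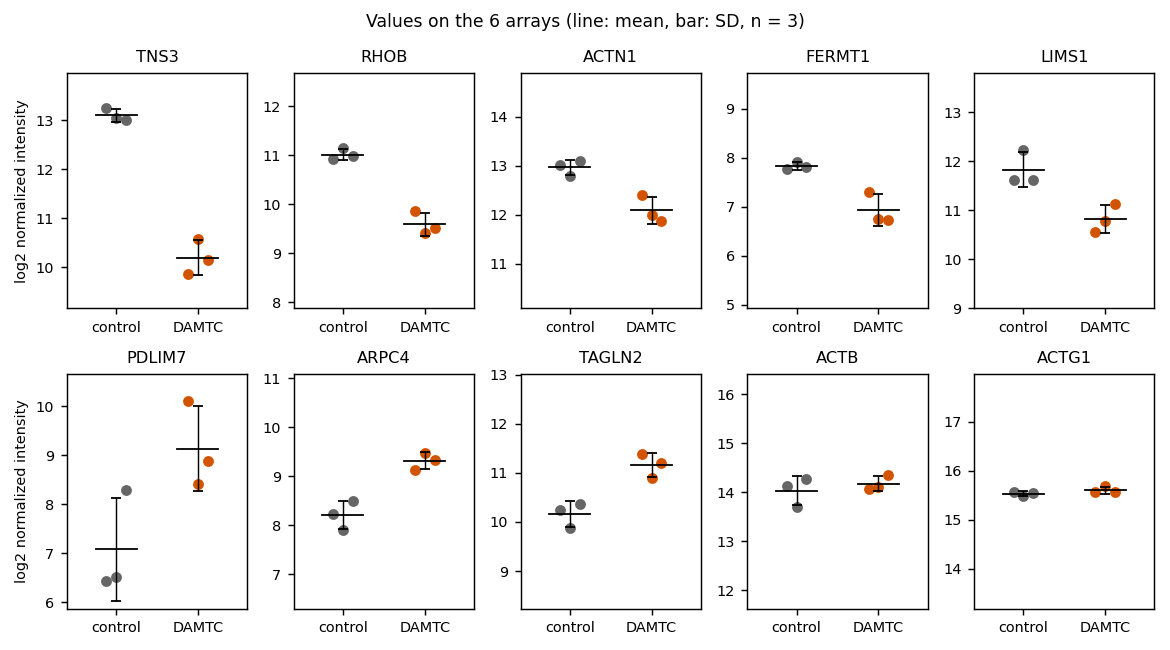
Log2 normalized intensity (y axis) on each of the 6 arrays for the 8 genes that passed and for ACTB and ACTG1, with the mean as a line and the SD as a bar (n = 3 per group), on axes that all span the same number of log2 units. The groups are far apart for TNS3, narrowly separated for PDLIM7 and overlap for ACTB and ACTG1.

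RHOA, the main activator of ROCK, differed by -0.06 (95% interval -0.61 to 0.50), RAC1, which drives lamellipodia, by -0.17 (-0.88 to 0.53) and CDC42, which drives filopodia, by 0.03 (-0.53 to 0.59) by its brightest probe. A dimmer CDC42 probe rose by 1.53 (adjusted p = 0.00411 in the fit over all probes). CDC42 passed with the mean of its probes and with its most variable probe, so its result depends on the probe. ROCK2, a kinase that activates myosin II, differed by -0.20 by its brightest probe (adjusted p = 0.572). A dimmer ROCK2 probe read 11.50, 10.16 and 10.35 on controls and 8.74, 10.03 and 9.57 with DAMTC, without overlap (-1.22, adjusted p = 0.0732 in the fit over all probes). LIMK2, a kinase that inactivates cofilin, differed by 0.35 (adjusted p = 0.529). LIMK2 was detected on 2 control and 2 DAMTC arrays.

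Of 7 measured genes of filament binding and cross-linking, 1 rose and 1 fell (28.6% passed, against 24.9% of all genes), and 5 did not pass. ACTN1, encoding alpha-actinin-1, a cross-linker of stress fibres, read 13.01, 12.80 and 13.10 on controls and 12.40, 11.996 and 11.87 with DAMTC. The groups did not overlap and the gene fell 1.84-fold (-0.88 ± 0.25 SE, adjusted p = 0.0333). It did not pass without control replicate 3 (adjusted p = 0.101) or DAMTC replicate 2 (0.116) or 3 (0.135), or with the series matrix values (0.0565). ACTN4, the related alpha-actinin-4, had a difference of -0.74 with a wide spread, from 10.48 to 12.18 on controls and from 10.25 to 11.67 with DAMTC (adjusted p = 0.338). TAGLN2, encoding transgelin-2, read 10.25, 9.87 and 10.36 on controls and 11.39, 10.90 and 11.21 with DAMTC. All DAMTC arrays were higher and the gene rose 2.01-fold (1.004 ± 0.26 SE, adjusted p = 0.0231). It did not pass without control replicate 2 (adjusted p = 0.0677), without DAMTC replicate 1 (0.0917) or 3 (0.0852), with median scaling (0.78, adjusted p = 0.0586) or with the series matrix values (0.90, adjusted p = 0.0551), and another TAGLN2 probe differed by 0.83 (adjusted p = 0.0597). TAGLN, the smooth muscle transgelin, differed by 0.04 (95% interval -1.15 to 1.22). The tropomyosins did not pass by their brightest probes, at -0.50 for TPM1, 0.42 for TPM2 and 0.42 for TPM4. TPM4 differed by 0.83 (adjusted p = 0.0401) without control replicate 1, which read 7.51 against 5.99 and 6.53 on the other controls.

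Of 9 measured genes of filament nucleation, ARPC4 rose (11.1% passed, against 24.9% of all genes) and 8 did not pass. ARPC4 encodes a core subunit of the Arp2/3 complex. It read 8.23, 7.91 and 8.50 on controls and 9.14, 9.49 and 9.33 with DAMTC, with no overlap, and rose 2.15-fold (1.11 ± 0.26 SE, adjusted p = 0.0145). A separate ARPC4 probe gave 1.06 (adjusted p = 0.0116 in the fit over all probes). The rise did not pass without DAMTC replicate 2 (adjusted p = 0.066) or 3 (0.0601) or with median scaling (0.78, adjusted p = 0.0636). The other subunits of the complex differed by -0.57 for ARPC5, -0.38 for ACTR3, -0.23 for ARPC2, 0.06 for ARPC1B, 0.23 for ARPC3 and 0.59 for ARPC1A, so the sign varied within the complex. ARPC1B was detected on 2 control arrays and 1 DAMTC array. DIAPH1, a formin that acts downstream of RHOA, read 10.37, 10.03 and 9.89 on controls and 10.63, 10.87 and 10.59 with DAMTC. Its difference of 0.60 had adjusted p = 0.111. Dropping control replicate 1 gave 0.74 (adjusted p = 0.0343), and a dimmer DIAPH1 probe rose by 0.95 (adjusted p = 0.0373 in the fit over all probes). WASL, the N-WASP activator of the Arp2/3 complex, had a difference of 0.48 (adjusted p = 0.331). When control replicate 1 was dropped it was 0.81 (adjusted p = 0.0315).

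The actins themselves did not pass in limma (0 of 3, while 24.9% of all genes passed). At an unadjusted p under 0.05 there were 0 as well, against 4060 of all 10779 genes tested. ACTB, encoding cytoplasmic beta-actin, read 14.13, 13.70 and 14.26 on controls and 14.08, 14.11 and 14.35 with DAMTC. The groups overlapped, with a difference of 0.15 ± 0.25 SE (95% interval -0.43 to 0.73, adjusted p = 0.709). Other detected ACTB probes differed by 0.77 and 0.11 (adjusted p = 0.396 and 0.794 in the fit over all probes). ACTG1, encoding cytoplasmic gamma-actin, read 15.57, 15.48 and 15.54 on controls and 15.55, 15.68 and 15.55 with DAMTC, a difference of 0.07 (-0.44 to 0.57). Its deposited intensities, from 42830 to 51960, lie near the highest value in the table, 56216. ACTA2, the smooth muscle actin, read 11.41, 12.40 and 12.04 on controls and 11.58, 11.44 and 10.90 with DAMTC (-0.65, 95% interval -1.39 to 0.09). ACTB and ACTG1 are near-identical in their coding sequence, and how far a probe of one reads the other was not tested.

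Of 7 measured genes of filament turnover and capping, 0 passed in limma, against 24.9% of all genes. An unadjusted p under 0.05 was found for 0 of them, against 4060 of all 10779 genes tested. PFN2, a profilin, had the smallest p and read 12.59, 12.17 and 12.11 on controls and 11.64, 11.72 and 12.07 with DAMTC, a difference of -0.48 (adjusted p = 0.209) without overlap. PFN1, the main profilin, differed by 0.03 (95% interval -0.78 to 0.84), CFL1, the main cofilin, by 0.00 (-0.65 to 0.66) and CFL2, the muscle cofilin, by -0.27 (-0.93 to 0.40). The capping protein subunits differed by -0.19 for CAPZA1, -0.17 for CAPZA2 and 0.36 for CAPZB. Another CAPZB probe differed by -0.21 and another PFN1 probe by 0.66 (adjusted p = 0.582 and 0.308 in the fit over all probes). Intervals of 5 of the 7 lay within 2-fold (71.4%, against 30.4% of all genes).

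Of 6 measured genes of non-muscle myosin II, 0 passed in limma, against 24.9% of all genes. An unadjusted p under 0.05 was found for 1 of them, MYL6, against 4060 of all 10779 genes tested. MYL6, the essential light chain, read 13.77, 13.82 and 14.76 on controls and 15.11, 14.92 and 14.78 with DAMTC. The DAMTC arrays were all higher, though control replicate 3 nearly reached them, and the difference was 0.82 (95% interval 0.10 to 1.54, adjusted p = 0.0917). Another MYL6 probe gave 0.71. MYL6 passed without control replicate 3 (adjusted p = 0.0281, log2 difference 1.15). MYH9, the heavy chain of myosin IIA, differed by -0.54 (-1.16 to 0.07), MYH10, that of myosin IIB, by -0.15 (-0.70 to 0.40), and the regulatory light chains MYL12A and MYL12B by 0.08 and 0.20. MYL9, a further regulatory light chain, was detected on 1 control array and 2 DAMTC arrays (0.31, adjusted p = 0.457). Of the membrane linkers, EZR read 13.19, 12.23 and 12.48 on controls and 12.87, 13.12 and 12.63 with DAMTC. The groups overlapped, with differences of 0.24 (-0.46 to 0.95) for EZR and -0.13 (-0.70 to 0.43) for MSN. Of these 2 genes, 0 passed in limma, against 24.9% of all genes. An unadjusted p under 0.05 was found for 0 of the 2, against 4060 of all 10779 genes tested.

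Several genes were read by more than 1 detected probe, and the probes of some parted. Of the 81 probes, 7 rose and 6 fell in the fit over all probes (16%, against 24.4% of the 13762 probes). Among 20 genes with several detected probes, all differences had the same sign in 16, and LIMS1 was the 1 gene with probes that passed in both directions. For TPM1, a pair of probes annotated to one transcript model differed by -1.58 (adjusted p = 0.0357) and -1.31 (adjusted p = 0.076), and probes annotated to other models by -0.50 and -0.60 (adjusted p = 0.275 and 0.251). The first pair read 10.03, 8.27 and 8.75, and 10.01, 7.98 and 8.85, on controls, and 6.87, 7.61 and 7.84, and 7.28, 7.60 and 8.03, with DAMTC, with control replicate 1 the highest in each. The mean change of the first pair differed from that of the other pair by -0.89 (exact two-sided permutation p = 0.1, the smallest possible). For CDC42, the brightest probe did not pass, while a probe annotated to a different transcript model read 6.78, 6.66 and 7.34 on controls and 8.53, 8.52 and 8.33 with DAMTC and rose by 1.53 ± 0.27 SE (adjusted p = 0.00411). The CDC42 probes parted by 1.499 log2 units (exact two-sided permutation p = 0.1), and a further CDC42 probe of that same model was detected on 0 arrays. TPM1, CDC42 and LIMS1 were chosen for comparison after their probe values were seen, so the permutation p-values lend no support to a difference between probes.

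**Figure D4:**
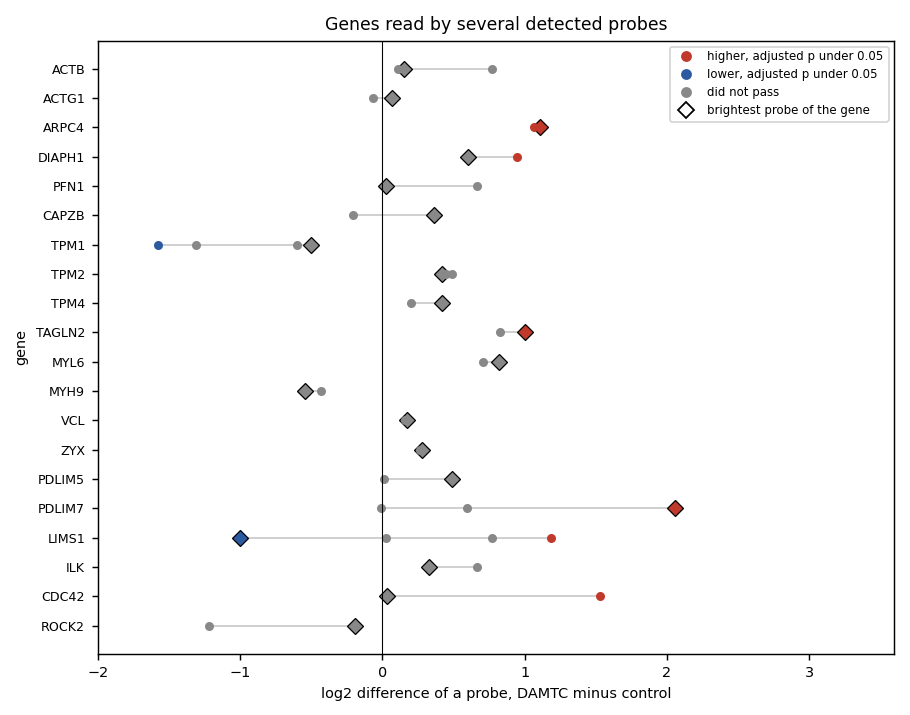
Log2 difference between DAMTC and control (x axis) of each detected probe for the 20 genes read by several, coloured by whether the probe passed in the fit over all probes, with a diamond for the brightest probe of each gene. Probes of ARPC4 and TPM2 lie together, while those of LIMS1, PDLIM7 and CDC42 are spread widely.

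A wider list of actin regulators outside the 54 genes was read in the same fit. Of 149 names, 108 were measured, 12 rose and 10 fell (20.4% passed, against 24.9% of all genes) and 86 did not pass, with a median log2 difference of -0.04. The largest rise was that of NHERF1, a scaffold that binds ezrin and moesin, which read 8.17, 8.72 and 9.32 on controls and 11.72, 11.45 and 11.46 with DAMTC (7.001-fold, 2.81 ± 0.32 SE, adjusted p = 7.10e-04). TWF1, encoding twinfilin-1, which binds actin monomers and filament ends, read 6.46, 5.18 and 5.45 on controls and 8.21, 8.82 and 8.47 with DAMTC. It rose 6.98-fold (2.80 ± 0.36 SE, adjusted p = 0.00114) and was detected on 2 of 3 control arrays. NEDD9, an adhesion scaffold phosphorylated by SRC and FAK, read 11.58, 10.75 and 10.61 on controls and 8.46, 8.49 and 8.86 with DAMTC and fell 5.204-fold (-2.38 ± 0.31 SE, adjusted p = 0.00118). SRC, the adhesion kinase itself, read 10.21, 12.18 and 11.42 on controls and 9.59, 8.73 and 9.48 with DAMTC. It fell 4.01-fold (-2.004 ± 0.48 SE, adjusted p = 0.0173), though not without control replicate 3 (adjusted p = 0.057) or DAMTC replicate 2 (0.0704). Of the 22 genes that passed, 20, 15 and 14 still passed without control replicate 1, 2 and 3, and 9 without each of the DAMTC replicates.

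The other named rises were ELK4 (1.67) and ELK1 (1.40), both partners of SRF on DNA, DAAM1, a formin (1.45), GIT2, an adhesion adaptor (1.42), SSH2, a phosphatase that activates cofilin (1.25), and ENAH, a filament elongation factor (1.15), as log2 differences. GIT2 was detected on 1 of 3 control arrays. It read 5.46, 5.13 and 5.10 on controls, near the dimmest detected probe of those arrays (5.285, 5.285 and 5.254), and did not pass with the mean of its probes. The other named falls were DLC1, a GTPase-activating protein for RHOA (at least 2.16-fold), ARHGAP29, of the same kind (at least 2.05-fold), WIPF1, which binds N-WASP (-1.29), MARCKS, which links filaments to the membrane (-1.24), SVIL, a filament-binding protein (-1.14), and KANK2, an adhesion border protein (at least 1.67-fold). DLC1, ARHGAP29 and KANK2 were detected on 0 DAMTC arrays, so their folds are bounds, with the control mean set against a floor, namely whichever is higher on each DAMTC array, the probe itself or the dimmest detected probe. NHERF1, TWF1, NEDD9, MARCKS and ELK4 passed in every alternative that measured them, and the calls of DAAM1, GIT2, SSH2, ELK1, ENAH, DLC1, ARHGAP29, WIPF1, SVIL and KANK2 were lost in between 1 and 11. Of 14 measured nucleation genes in the wider list, 4 rose and 1 fell (35.7% passed, against 24.9% of all genes). The rises were DAAM1 and, named after their values were seen, BRK1 (1.10), ARPC5L (0.98) and WASF2 (0.88). Of the 18 alternatives, the calls of BRK1, ARPC5L and WASF2 were lost in 8, 7 and 10. SRF differed by 0.27 (adjusted p = 0.534), and its coactivators MRTFA by 0.78 (adjusted p = 0.0852) and MRTFB by -0.86 (adjusted p = 0.118; -1.16 and 0.0352 with median scaling).

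**Figure D5:**
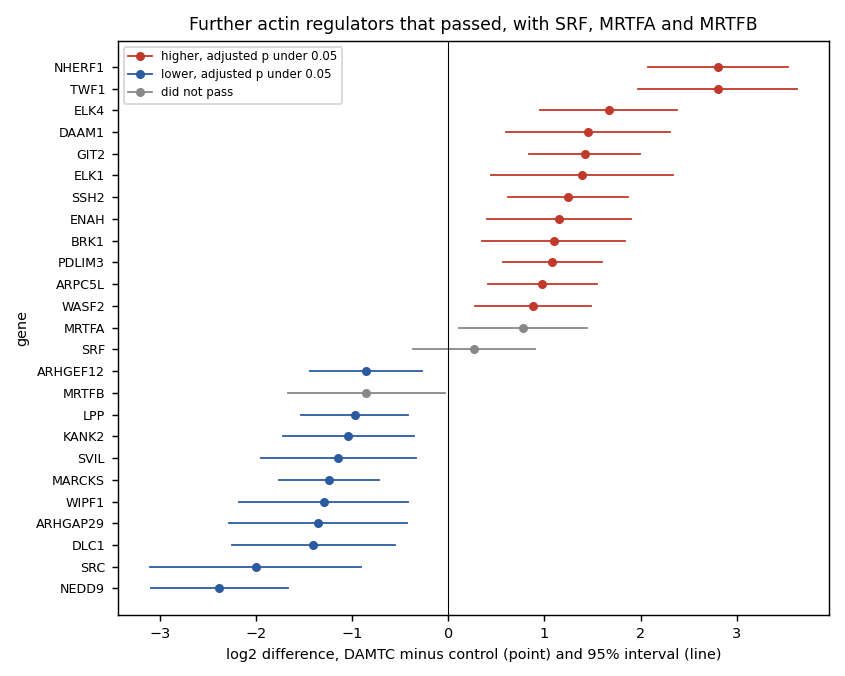
Log2 difference between DAMTC and control (x axis, point) with its 95% interval (line) for the 22 genes of the wider list that passed, together with SRF, MRTFA and MRTFB, which did not. NHERF1 and TWF1 are the highest, at 2.81 and 2.80, and NEDD9 the lowest, at -2.38.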

How the data were processed

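RNA of 3 control and 3 DAMTC samples was hybridised to Illumina Human-6 BeadChips. Per the file headers, the deposited table gives a mean bead intensity per probe on a linear scale, a detection p-value, the number of beads (other values) and their standard error, a signal column not used here. The submitters' processing notes name BeadStudio, with no version stated. Values of the deposited series matrix, also intensities, were a straight line of the same bead intensities in each array (largest residual 0.0107), after an offset was subtracted and the arrays were scaled to nearly one mean. They served as an alternative.

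Background was estimated from detection p-values by the nec function (limma 3.58.1, R 4.3.3, offset 16). Quantile normalization and log2 followed. The platform annotation names 1 gene symbol for 27578 of 48803 probes, several for 13 and none for 21212. Entrez IDs of 27541 probes were found among RefSeq genes (GRCh38.p14), which served for names only. A gene is represented by its brightest probe detected on 3 or more arrays. The difference of DAMTC from control was fitted with lmFit and eBayes over 10779 genes, with Benjamini-Hochberg adjustment, and further probes by the same fit over 13762 probes. The table repeats 1 probe ID, of ACTB, which was averaged. Levels of different probes are not compared. Values in every array are given for those of the 54 genes that passed with a difference of at least 1 log2 unit, for ACTB and ACTG1 and for the gene of smallest p in a role group. Others were added after their values were seen. Up to 8 genes per direction are named from the wider list, with SRF, MRTFA and MRTFB. 3 of its 149 names are older names of other entries. Genes, lists and roles were chosen with earlier results of these data known.

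Same-numbered control and DAMTC arrays deviated from their group means with correlations of -0.451, -0.457 and -0.178, so numbers were not taken as pairs. The fit was tested on simulated data with known changes. The number of arrays limits the precision. Protein sequences and probe sequences were not used here. The counts of 1 group of the listed genes are not reported here.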

Additional observations from a re-analysis of the deposited data

How the results depend on the processing

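Counts are rises and falls of the 54 genes (3 and 5) and of the wider list (12 and 10). Leaving out 1 array gave 0 to 6 rises and 2 to 6 falls, and 5 to 22 and 3 to 11 in the wider list. With median scaling there were 0 rises and 5 falls, and 7 and 17. The series matrix values gave 2 and 4, and 8 and 13, and no background correction 8 and 5 in the wider list. Detection on all 6 arrays gave 6 falls there, as did no detection filter, with 9 rises in each, and the most variable probe gave 6 rises of the 54 genes. Array weights gave 6 and 8, and 25 and 23. The replicate block gave 1 and 2, and 5 and 3, though replicate numbers do not pair the arrays. At adjusted p under 0.01 there were 0 and 2, and 5 and 2, and with a 2-fold limit added 3 and 2, and 10 and 8. The shares of all genes that passed in the same settings are not given here, and the cause of these changes was not tested.

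LIMS1 turned to 0.24 with the mean of its probes and 1.18 with its most variable probe. Of the 8 called genes, TNS3 and RHOB kept their call in all 18 alternatives and 6 lost it in some. Of the 46 others, 11 passed in some. Without DAMTC replicate 3, 2 of the 8 were still called, and 7 of 8 without control replicate 1. The series matrix values with quantile normalization, an alternative chosen after seeing the data, kept all 8.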
